A study of Mus musculus with 71 samples.

Results

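The 10 genes described here, Tsc22d3, Sgk1, Fkbp5, Cdkn1a, Zbtb16, Gjb6, Klf9, Ddit4, Errfi1 and Pdk4, are known to be transcribed more when glucocorticoid hormones act on a cell. They were taken as every probe set whose platform annotation names 1 of these genes, which gave 25 of the 45037 probe sets measured and 10 of the 18193 genes named on the array. Klf9 had 7 probe sets, Tsc22d3 4, Fkbp5 and Zbtb16 3 each, Cdkn1a and Errfi1 2 each, and Sgk1, Gjb6, Ddit4 and Pdk4 1 each. The values below come from the brightest probe set of each gene unless another is named.

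Whole brains of male C57BL/6J, AKR/J and DBA/2J mice, all inbred, aged 12-13 weeks and bought from the Jackson Laboratory, were profiled on Affymetrix arrays. In each strain, mice kept awake for 6 h were compared with controls left in their home cage, and both were killed at Zeitgeber time (ZT) 0, 6, 12 or 18, where ZT0 is light onset and ZT12 dark onset. The labels give the time of sacrifice and the design text the time at which deprivation began. Read together, a deprivation sampled at ZT6 or ZT12 filled light hours and a deprivation sampled at ZT18 or ZT0 filled dark hours. The series holds 71 arrays, 35 from sleep-deprived and 36 from control mice, with 3 arrays in each of the 24 groups of strain, condition and time except AKR/J sleep-deprived ZT18, which has 2. Each array holds the pooled RNA of 3 mice, so the errors measure the spread between pools and not between mice. No hormone was measured in these data, and the name of the gene set rests on background knowledge alone.

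Glucocorticoids, mainly corticosterone in mice, cross into cells and bind the glucocorticoid receptor, which leaves its Hsp90 chaperone complex, enters the nucleus and binds a palindromic DNA sequence, the glucocorticoid response element. Circulating corticosterone in nocturnal rodents peaks around the start of the dark phase and also rises with stress, including enforced waking. In brain, glucocorticoid-induced genes are expressed in neurons, astrocytes, oligodendrocytes and vessel cells, and in whole-brain RNA fewer cells of a type and less RNA per cell cannot be told apart.

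All values are log2 RMA (robust multi-array average) signals, and a difference of 1 is a doubling. Array medians lay between 5.65 and 5.71, and the lowest correlation between any pair of arrays was 0.986. On the 24 probe sets of the poly-A spike-in controls, 6 arrays stood apart with mean levels of 5.35 or less, against 5.66 or more in the other arrays. These were C57BL/6J sleep-deprived ZT0 replicate 3, C57BL/6J sleep-deprived ZT6 replicates 1 and 3, C57BL/6J control ZT0 replicate 3, AKR/J control ZT0 replicate 3 and AKR/J control ZT6 replicate 3. Where leaving them out changed a call at the brightest probe set of a gene, the value without them is given beside the result. Growth hormone (Gh), a pituitary gene, ran from 4.87 to 13.3 with a median of 11.7 in sleep-deprived arrays, and from 4.96 to 13.4 with a median of 12.1 in controls, and the part of attached pituitary in the results was not tested.

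Averaged over strains and times, all 10 genes were higher in sleep-deprived brains than in controls (limma, Benjamini-Hochberg adjusted p under 0.05 over all probe sets). Of all probe sets, 8.31% were called higher and 9.00% lower in this comparison. The median change of the 10 genes was 0.26, against -0.00 over all probe sets. The genes differed in size by a wide margin, with Cdkn1a at 0.58 ± 0.04 (SE) and Klf9 at 0.08 ± 0.02. The plot of each array's value by gene shows the shift and its overlap.

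**Figure D1:**
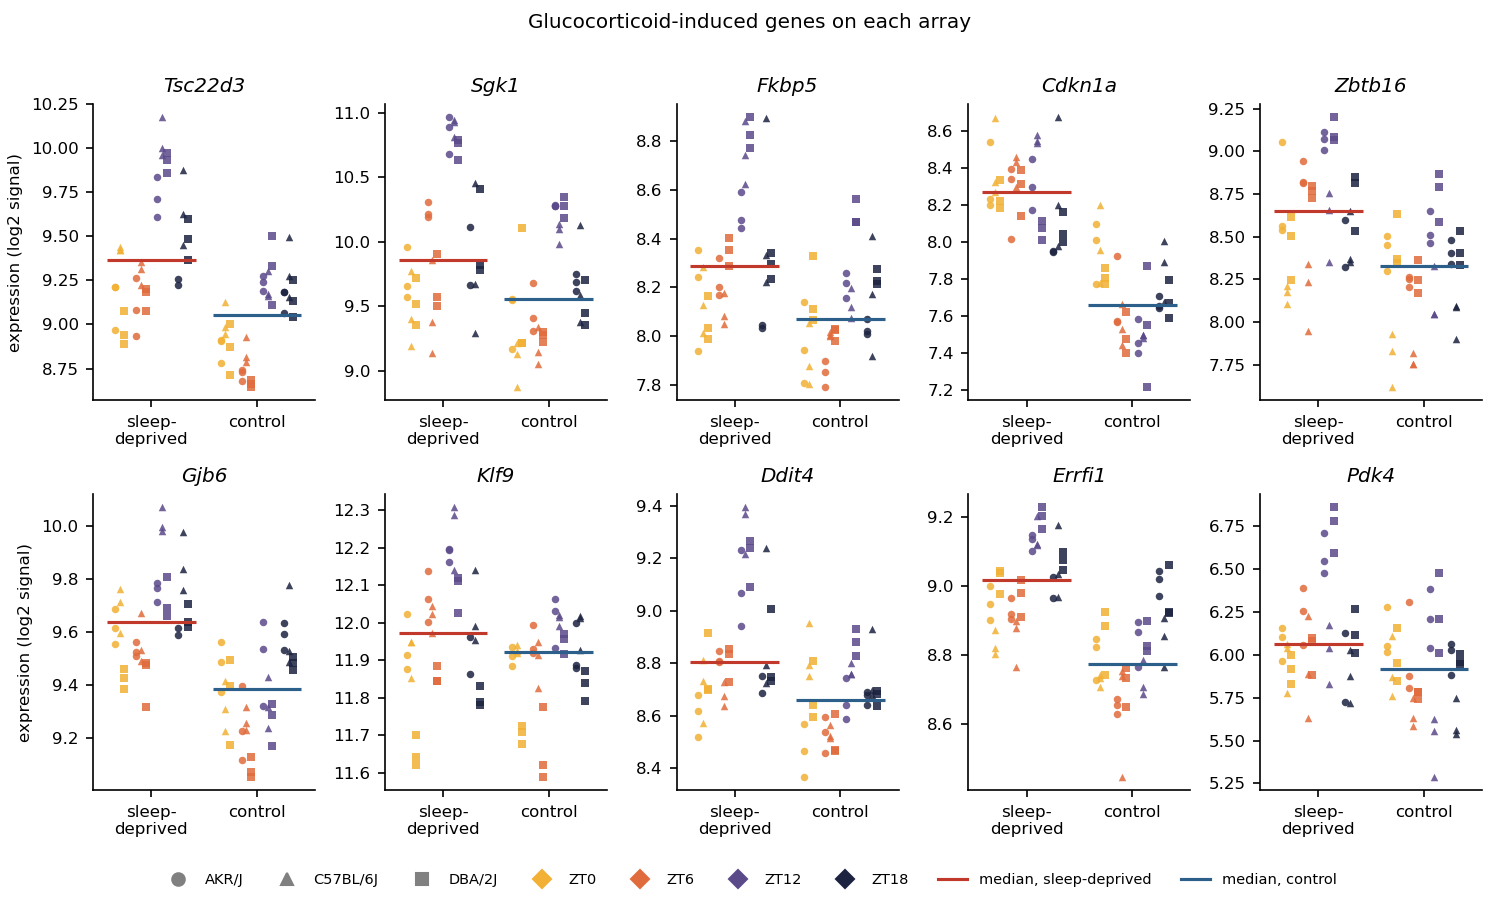
Log2 signal of each of the 10 genes in every array, with sleep-deprived arrays left of control arrays in each panel; marker shape gives the strain, colour the time of sacrifice, and the line the median. The medians of the 35 sleep-deprived arrays lie above those of the 36 control arrays for all 10 genes, with overlap in each.

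Cdkn1a encodes p21, an inhibitor of cyclin-dependent kinases that p53 also induces. Its level in sleep-deprived arrays ran from 7.95 to 8.67 with a median of 8.27, against 7.22 to 8.20 with a median of 7.66 in controls. It was 1.49-fold higher (adjusted p = 6.15e-19, limma). The groups overlapped only between 7.95 and 8.20, and the second Cdkn1a probe set, 1421679_a_at, differed by 0.45.

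Among the transcription regulators, Tsc22d3 encodes GILZ, a leucine zipper protein that restrains NF-kappaB and AP-1 activity. Sleep-deprived arrays held 8.89 to 10.17 with a median of 9.36, and control arrays 8.65 to 9.50 with a median of 9.05. The difference was 0.40 ± 0.03, a 1.32-fold higher signal (adjusted p = 2.34e-18, limma). Zbtb16 encodes PLZF, a zinc finger protein that mostly represses transcription. It ran from 7.95 to 9.20 (median 8.65) in sleep-deprived arrays and from 7.62 to 8.87 (median 8.33) in controls, a difference of 0.36 ± 0.03 (1.29-fold, adjusted p = 2.25e-13, limma). Klf9, a Krüppel-like factor, had the highest signal and the smallest change of the 10. Its sleep-deprived arrays ran from 11.62 to 12.31 (median 11.97) and its controls from 11.59 to 12.06 (median 11.92), and the difference was 1.06-fold (adjusted p = 9.1e-05, limma).

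Among the enzymes and signalling inhibitors, Sgk1 encodes a kinase that raises the activity of ion channels and transporters. Its level was 9.13 to 10.96 (median 9.86) in sleep-deprived arrays and 8.88 to 10.35 (median 9.55) in controls, a difference of 0.40 ± 0.06 (1.32-fold, adjusted p = 1.66e-07, limma). Sgk1 changed as much as Tsc22d3 with a larger error, and its values spread more between pools of 1 group, with a pooled SD of 0.25 against 0.11 for Tsc22d3. Errfi1 encodes Mig6, an inhibitor of the epidermal growth factor receptor. Sleep-deprived arrays ran from 8.77 to 9.23 (median 9.02) and controls from 8.45 to 9.06 (median 8.77), 1.16-fold higher (0.21 ± 0.02, adjusted p = 1.18e-14, limma). Ddit4 encodes REDD1, an inhibitor of the growth kinase complex mTORC1. It ran from 8.52 to 9.39 (median 8.80) after sleep deprivation and from 8.37 to 8.95 (median 8.66) in controls, 1.15-fold higher (0.21 ± 0.03, adjusted p = 3.47e-09, limma). Pdk4 encodes a kinase that switches off pyruvate dehydrogenase and so limits glucose oxidation. It had the lowest signal of the 10, 5.63 to 6.86 (median 6.06) in sleep-deprived arrays and 5.29 to 6.48 (median 5.92) in controls, and the change was 0.20 ± 0.04 (1.15-fold, adjusted p = 2.6e-05, limma).

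Fkbp5 encodes FKBP51, an Hsp90 co-chaperone that lowers the hormone affinity of the glucocorticoid receptor and so closes a feedback loop. Its level ran from 7.94 to 8.90 (median 8.29) in sleep-deprived arrays and from 7.79 to 8.57 (median 8.07) in controls, 1.17-fold higher (0.23 ± 0.03, adjusted p = 1.79e-08, limma). Gjb6 encodes connexin 30, a gap junction protein that in brain is found mainly in astrocytes. It ran from 9.32 to 10.07 (median 9.64) in sleep-deprived arrays and from 9.06 to 9.78 (median 9.38) in controls, 1.21-fold higher (0.28 ± 0.02, adjusted p = 3.24e-15, limma). The highest sleep-deprived array lay above the highest control array for every one of the 10 genes, and the lowest above the lowest, while each pair of ranges overlapped when strains and times were mixed.

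Of the 25 probe sets, 19 were called higher and 0 lower. The 6 others were 4 Klf9 probe sets, at 0.05 to 0.13, Tsc22d3 1444365_at at -0.04 (adjusted p = 0.518, limma) and Fkbp5 1447736_at at -0.00 (adjusted p = 0.961, limma). The Tsc22d3 and Fkbp5 probe sets are dim, with mean signals of 4.0 and 3.1, as is Klf9 1452723_at at 4.0. Without the 6 arrays that stood apart on the spike-ins, Klf9 1428289_at (adjusted p = 0.0109) and 1436763_a_at (0.0238) were also called higher (limma). The bright probe sets of Tsc22d3 and Fkbp5 gave like values, 0.40 and 0.41 for Tsc22d3 1420772_a_at and 1425281_a_at, and 0.23 and 0.22 for Fkbp5 1416125_at and 1448231_at. Zbtb16 ranged more, from 0.36 at the brightest probe set through 0.30 at 1419874_x_at to 0.18 at 1427638_at. Tsc22d3 1425557_x_at, whose suffix marks probes that can bind other transcripts, gave 0.16. Zbtb16 1419874_x_at carries the same suffix.

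**Figure D2:**
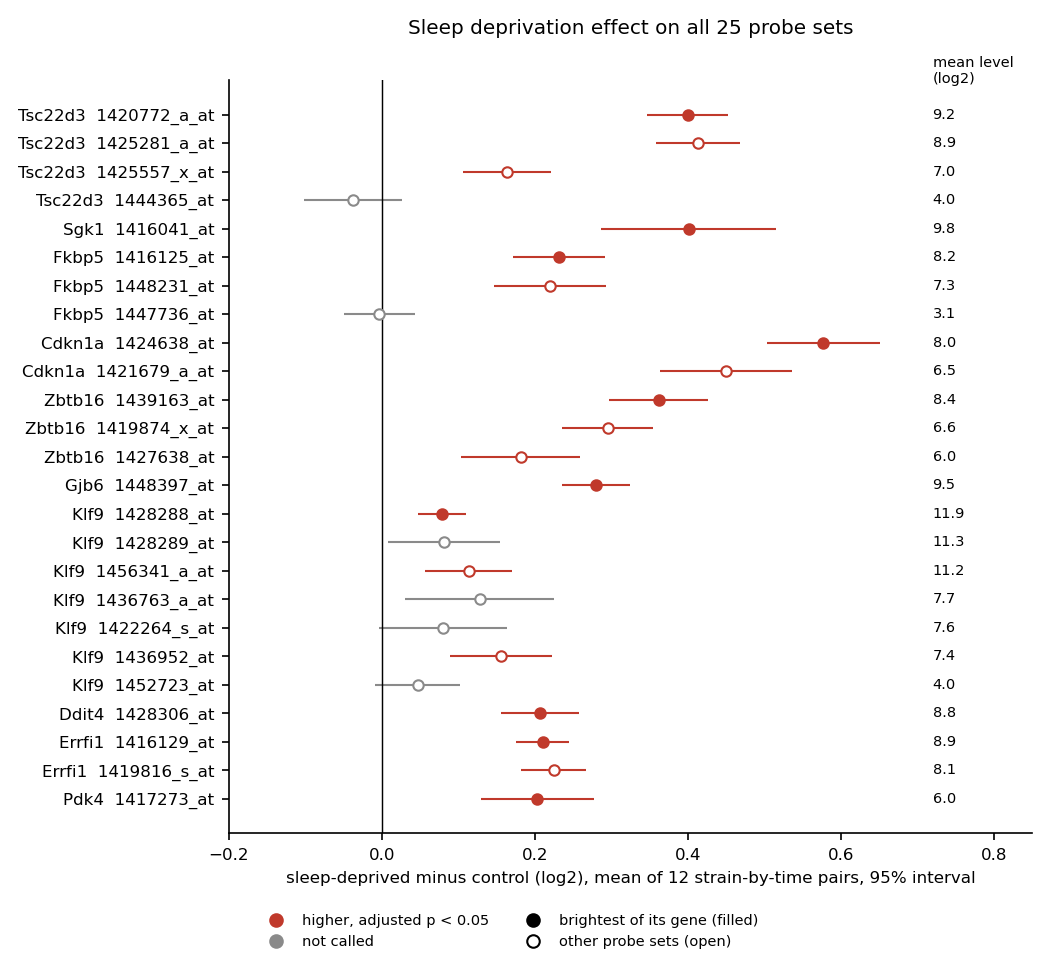
Sleep-deprived minus control difference (log2, mean over strains and times) for each of the 25 probe sets with its 95% interval; filled points are the brightest probe set of each gene and red points were called higher. The 10 brightest probe sets are all red, and the 6 that were not called include 4 of Klf9.

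The promoters of these genes were searched for the receptor's element and for 2 other elements known from stress and clock responses, using RefSeq sequences of the GRCm38.p6 build from 250 bases before to 50 bases after each annotated start. Of the 10 genes, 9 had an entry, with 18 promoters among the 32851 in the table, and Zbtb16 is named only. The full palindrome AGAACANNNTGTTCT, where N is any base, occurred in 3 promoters of the whole table (0.00913%), and 1 of these was an Sgk1 promoter. The looser form GNACANNNTGTNC was found in 0.475% of all promoters and, among the members, at the same Sgk1 position only. The windows below show the match in capitals with its flanks in lower case, 5′ to 3′ on the gene's strand. Sgk1 is shown for the palindrome, Tsc22d3 for a lone arm of it, Fkbp5 for the E-box CACGTG and Errfi1 for the cAMP response element TGACGTCA.
Sgk1, chr10:21993671-21993745, plus strand: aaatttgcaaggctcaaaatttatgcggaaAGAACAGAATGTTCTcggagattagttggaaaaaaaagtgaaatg
Tsc22d3, chrX:140600672-140600737, minus strand: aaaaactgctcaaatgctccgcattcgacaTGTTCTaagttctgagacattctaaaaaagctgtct
Fkbp5, chr17:28486283-28486348, minus strand: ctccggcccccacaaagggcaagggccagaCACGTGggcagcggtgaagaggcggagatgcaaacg
Errfi1, chr4:150854989-150855056, plus strand: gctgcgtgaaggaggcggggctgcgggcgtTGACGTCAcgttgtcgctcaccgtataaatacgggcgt

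In the Sgk1 window the palindrome spans positions -189 to -175 from the annotated start. A lone arm, AGAACA or TGTTCT on either strand, is common, in 19% of all promoters, and was present in 4 of the 18 member promoters, 3 of Sgk1 and 1 of Tsc22d3, where it lies at -185. The E-box CACGTG was in 7.15% of all promoters and in those of Fkbp5, at -169, and Sgk1, at -246, where it overlaps a lone arm at -242. The cAMP response element was in 1.79% of all promoters and, among the members, in that of Errfi1, at -51. These are matches of letters in a short window and say nothing of binding, and elements farther from the start were not searched.

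The response differed by time of day. At ZT12, after waking through the later light hours, all 10 genes were higher in sleep-deprived brains, against 4.71% of all probe sets called higher and 5.04% lower. At ZT6 all 10 were also higher, against 5.13% higher and 5.29% lower of all probe sets. At ZT0 5 were higher, against 1.26% higher and 0.453% lower, and at ZT18 2 were higher, against 0.0600% higher and 0.0178% lower. None was called lower at any time, and the median change of the 10 genes was 0.17 at ZT0, 0.29 at ZT6, 0.46 at ZT12 and 0.14 at ZT18.

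**Figure D3:**
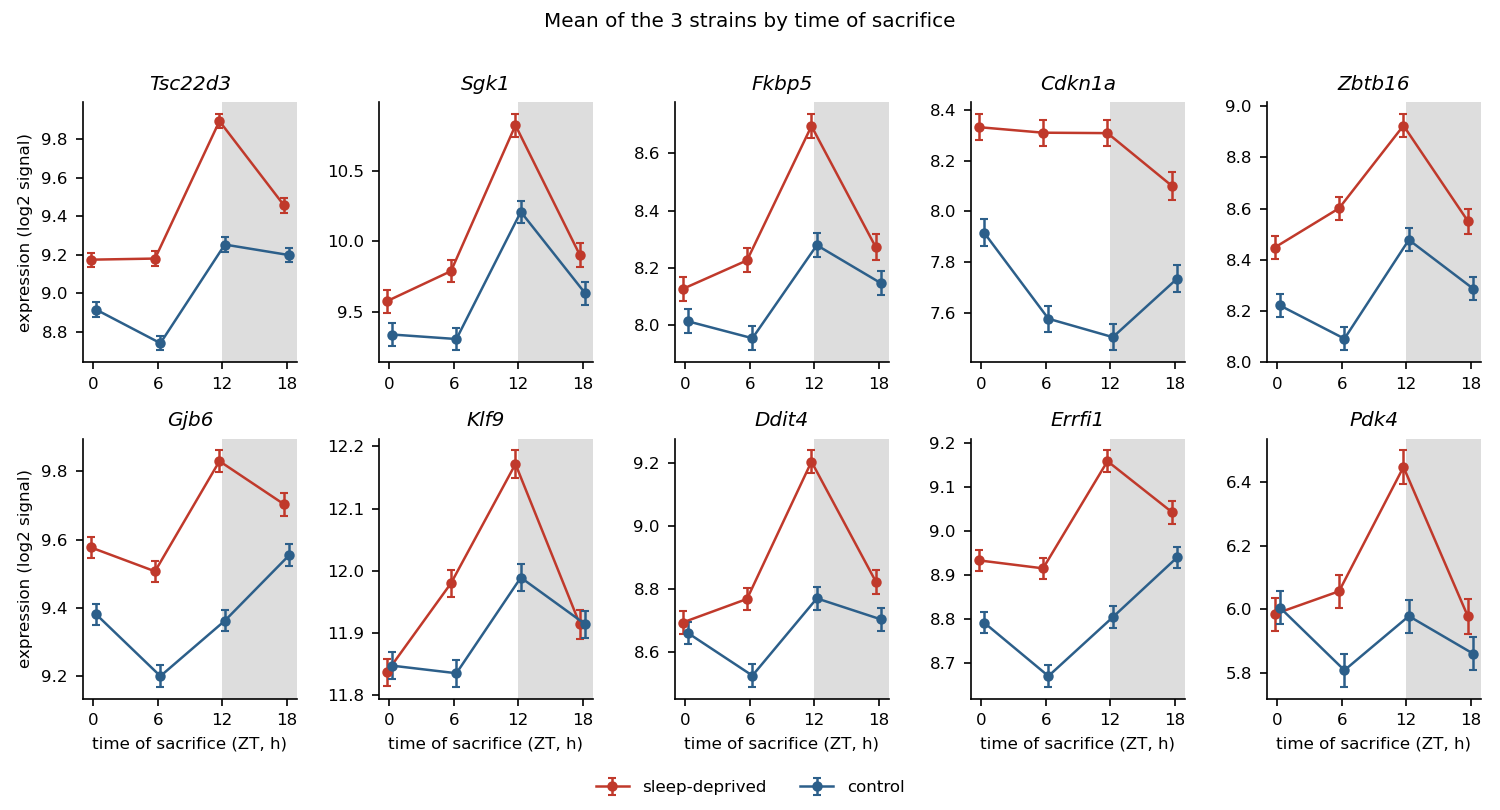
Mean log2 signal over the 3 strains (± SE) at each time of sacrifice, sleep-deprived in red and control in blue, with the dark phase shaded. The gap between the curves is widest at ZT12 for Tsc22d3 (0.64), Sgk1 (0.62) and Cdkn1a (0.80), and for Cdkn1a the sleep-deprived curve stays near 8.3 from ZT0 to ZT12 while the control curve dips.

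At ZT12 Cdkn1a had 8.58, 8.55 and 8.53 in the C57BL/6J sleep-deprived arrays, against 7.48 to 7.50 in the 3 C57BL/6J controls. In AKR/J it had 8.45, 8.30 and 8.17 in sleep-deprived arrays and 7.59, 7.40 and 7.45 in controls, and in DBA/2J 8.07, 8.01 and 8.11 in sleep-deprived arrays and 7.87, 7.55 and 7.22 in controls. The groups did not overlap in any strain, and the mean difference of 0.80 was the largest of the 10 genes at that time. Tsc22d3 lay between 9.96 and 10.17 in the 3 C57BL/6J sleep-deprived arrays, against 9.30, 9.16 and 9.17 in C57BL/6J controls. In DBA/2J it had 9.93, 9.86 and 9.97 in sleep-deprived arrays and 9.11, 9.33 and 9.50 in controls, and in AKR/J 9.61, 9.71 and 9.84 in sleep-deprived arrays and 9.19, 9.24 and 9.28 in controls. Its mean difference at ZT12 was 0.64, again with every sleep-deprived array above every control array of the strain.

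Sgk1 at ZT12 had 10.94, 10.81 and 10.93 in C57BL/6J sleep-deprived arrays, against 10.10, 9.98 and 10.14 in C57BL/6J controls. In AKR/J it had 10.68, 10.96 and 10.89 in sleep-deprived arrays and 10.29, 10.28 and 10.28 in controls, and in DBA/2J 10.79, 10.64 and 10.77 in sleep-deprived arrays and 10.19, 10.27 and 10.35 in controls. The difference of 0.62 (adjusted p = 6.97e-05, limma) thus sat on top of a control level that was itself the highest of the day. The feedback co-chaperone Fkbp5 had 8.62, 8.74 and 8.88 in C57BL/6J sleep-deprived arrays and 8.07, 8.20 and 8.12 in C57BL/6J controls, and its mean difference over strains was 0.42. Pdk4 and Gjb6 each differed by 0.47 at ZT12, Zbtb16 by 0.45, Ddit4 by 0.43, Errfi1 by 0.35 and Klf9 by 0.18. With each strain taken alone at this time, all 30 pairs of a gene and a strain had every sleep-deprived array above every control array. For no overlap in all 3 strains the count was 10 of 10 genes at ZT12, against 1.53% of all probe sets.

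At ZT6 the difference was 0.73 for Cdkn1a, 0.51 for Zbtb16, 0.48 for Sgk1 (adjusted p = 0.0019, limma), 0.44 for Tsc22d3 and 0.31 for Gjb6. It was 0.27 for Fkbp5, 0.24 for Ddit4 and Errfi1, 0.25 for Pdk4 (adjusted p = 0.0181, limma) and 0.14 for Klf9. Zbtb16 thus ranked second here, with 8.82, 8.95 and 8.82 in AKR/J sleep-deprived arrays against 8.25, 8.26 and 8.20 in AKR/J controls. The groups did not overlap in any of the 3 strains for 8 of 10 genes, the exceptions being Sgk1 and Pdk4, against 1.24% of all probe sets. The Pdk4 call did not hold without AKR/J sleep-deprived ZT6 replicate 3 (adjusted p = 0.0519), C57BL/6J sleep-deprived ZT6 replicate 1 (0.0849) or AKR/J control ZT6 replicate 1 (0.06), nor without the 6 arrays that stood apart on the spike-ins (0.0923), nor with only the ZT6 groups fitted (0.0537), and the last 2 settings left 9 genes called (limma throughout).

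At ZT0 the 5 genes called higher were Cdkn1a by 0.41 (adjusted p = 0.000219), Tsc22d3 by 0.26 (0.0017), Gjb6 by 0.20 (0.00693), Errfi1 by 0.14 (0.0152) and Zbtb16 by 0.23 (0.0493), all by limma. Sgk1 differed by 0.24 (adjusted p = 0.348) and Fkbp5 by 0.11 (0.414), and Ddit4, Klf9 and Pdk4 lay between -0.02 and 0.03. DBA/2J Sgk1 shows the spread, with 9.52, 9.36 and 9.72 in sleep-deprived arrays against 9.22, 9.21 and 10.11 in controls. Cdkn1a and Errfi1 did not overlap in any strain, 2 of 10 genes against 0.342% of all probe sets. The Zbtb16 call was lost in 50 of the 71 fits that each left out 1 array, with an adjusted p of up to 0.166, and the Errfi1 call without DBA/2J control ZT0 replicate 1 (0.0666), a fit that kept 3 of the 5 calls. Without the 6 arrays that stood apart, 3 genes were called, and Zbtb16 (adjusted p = 0.203) and Errfi1 (0.0665) were not. With only the ZT0 groups fitted, 2 were called, and Gjb6 (0.107), Errfi1 (0.153) and Zbtb16 (0.255) were not, and Zbtb16 was also lost under quantile normalization (0.0817) and with the spike-in split as a block (0.0578).

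At ZT18 Cdkn1a was higher by 0.36 and Tsc22d3 by 0.26, each with an adjusted p of 0.0229 (limma). Cdkn1a had 7.95 and 7.95 in AKR/J sleep-deprived arrays, against 7.64, 7.71 and 7.66 in AKR/J controls. Tsc22d3 had 9.63, 9.45 and 9.87 in C57BL/6J sleep-deprived arrays and 9.28, 9.49 and 9.16 in C57BL/6J controls, which overlap. Sgk1 differed by 0.27 (adjusted p = 0.776), Zbtb16 by 0.26 (0.135) and Gjb6 by 0.15 (0.385). No gene was free of overlap in all 3 strains, as were 0.0933% of all probe sets. One array, C57BL/6J sleep-deprived ZT18 replicate 3, held the highest C57BL/6J ZT18 value for several genes at once, for example 10.46 for Sgk1, against 9.67 and 9.29 in the other sleep-deprived arrays and 9.59, 10.13 and 9.38 in controls. For Fkbp5 that array read 8.90, against 8.22 and 8.33 in the other sleep-deprived arrays and 7.92, 8.41 and 8.17 in controls. Leaving out any of 13 ZT18 arrays changed the count of 2 genes: Tsc22d3 was lost in 11 such fits and Cdkn1a in 9, with the highest adjusted p, 0.163 and 0.144, both without AKR/J sleep-deprived ZT18 replicate 1. The 13 were AKR/J sleep-deprived replicates 1 and 2, C57BL/6J sleep-deprived replicates 1 and 3, DBA/2J sleep-deprived replicates 1 and 3, AKR/J control replicates 1 to 3, C57BL/6J control replicates 1 and 3, and DBA/2J control replicates 2 and 3. With only the ZT18 groups fitted, neither Tsc22d3 (adjusted p = 0.233) nor Cdkn1a (0.141) passed, and with array weights Zbtb16 passed as well (0.037).

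The difference between times was tested directly. Sleep deprivation and time interacted for 7 of 10 genes, against 1.40% of all probe sets. These were Tsc22d3, with changes spanning 0.38 between the lowest and highest time (adjusted p = 0.00133), Ddit4 (0.40, 0.00136), Errfi1 (0.25, 0.00357), Klf9 (0.19, 0.00445), Gjb6 (0.32, 0.0047), Cdkn1a (0.44, 0.0109) and Pdk4 (0.49, 0.019), all by limma's F test. Fkbp5 (0.30, adjusted p = 0.0936), Zbtb16 (0.28, 0.183) and Sgk1 (0.38, 0.496) did not pass. Fkbp5 passed without C57BL/6J sleep-deprived ZT18 replicate 3 (adjusted p = 0.00605) or C57BL/6J control ZT18 replicate 1 (0.0385), and also with probe sets filtered for brightness (0.0478) or the spike-in split as a block (0.0363). Zbtb16 passed without AKR/J sleep-deprived ZT0 replicate 3 (0.0435).

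In undisturbed mice the same genes varied with the time of day. In controls 9 of 10 genes changed over the 4 times (limma F test), against 11.7% of all probe sets. Sgk1 had the widest range, with mean levels of 9.34 at ZT0, 9.30 at ZT6, 10.21 at ZT12 and 9.63 at ZT18 (range 0.90, adjusted p = 1.05e-08). Tsc22d3 followed with 8.92, 8.74, 9.25 and 9.20 at the same times (range 0.51, adjusted p = 9.39e-12). Both were lowest at ZT6 and highest at ZT12, and for Tsc22d3 the ZT18 level was nearly as high.

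The control mean was highest at ZT12 for 6 genes, Tsc22d3, Sgk1, Fkbp5 (8.28), Zbtb16 (8.48), Klf9 (11.99) and Ddit4 (8.77). Gjb6 and Errfi1 were highest at ZT18, at 9.55 and 8.94, and Cdkn1a and Pdk4 at ZT0, at 7.92 and 6.01. The lowest mean fell at ZT6 for 9 genes. Cdkn1a ran the other way, with 7.92 at ZT0, 7.58 at ZT6, 7.51 at ZT12 and 7.74 at ZT18 (range 0.41, adjusted p = 9.87e-05, limma). Pdk4 did not pass (range 0.20, adjusted p = 0.147), except without AKR/J control ZT6 replicate 3 (0.0383).

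Set directly against ZT0, controls at ZT12 had 5 genes higher, against 3.33% of all probe sets, and 1 lower, against 2.53%. Sgk1 was higher by 0.87 (adjusted p = 1.59e-07), Tsc22d3 by 0.34 (8.09e-06), Fkbp5 by 0.27 (0.00248), Zbtb16 by 0.26 (0.00747) and Klf9 by 0.14 (0.00176), and Cdkn1a was lower, at -0.41 (0.000101, limma). In C57BL/6J controls, for example, Sgk1 read 10.10, 9.98 and 10.14 at ZT12, against 9.13, 9.22 and 8.88 at ZT0, with no overlap. The Zbtb16 call was lost without the 6 arrays that stood apart (adjusted p = 0.0702).

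In sleep-deprived mice 9 of 10 genes also varied over the 4 times, against 1.42% of all probe sets. Sgk1 had mean levels of 9.57 at ZT0, 9.79 at ZT6, 10.82 at ZT12 and 9.90 at ZT18, a range of 1.25, and Tsc22d3 9.18, 9.18, 9.90 and 9.46, a range of 0.72. Fkbp5 ranged over 0.57, Ddit4 over 0.51, Zbtb16 over 0.48, Pdk4 over 0.47, Klf9 over 0.33, Gjb6 over 0.32 and Errfi1 over 0.24. Cdkn1a was the exception, with 8.33, 8.31, 8.31 and 8.10 from ZT0 to ZT18 (range 0.23, adjusted p = 0.248, limma), and it passed only without C57BL/6J sleep-deprived ZT18 replicate 3 (0.0358). Its large difference at ZT12 therefore stood beside a near-level sleep-deprived mean at ZT0, ZT6 and ZT12 and a control mean that was lowest at ZT12. For Sgk1 and Tsc22d3 both the sleep-deprived and the control means were highest at ZT12. The differences at each time and the daily range of the controls use the same control arrays, so they are set side by side and not correlated.

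Ordering the 24 groups by level puts the 3 sleep-deprived ZT12 groups at the top for Tsc22d3, Sgk1, Fkbp5, Klf9, Ddit4 and Errfi1. The lowest group was DBA/2J control ZT6 for Tsc22d3 (8.66), C57BL/6J control ZT0 for Sgk1 (9.07) and AKR/J control ZT12 for Cdkn1a (7.48). Klf9 was lowest in a sleep-deprived group, DBA/2J ZT0, at 11.66. Sleep-deprived groups filled 11 of the 12 highest places for Cdkn1a, 10 for Zbtb16, Gjb6 and Errfi1, 8 for Tsc22d3, Sgk1, Fkbp5 and Ddit4, and 7 for Klf9 and Pdk4. Most neighbours in these orders lay close together. Of 23 steps between neighbours, only 1 (Cdkn1a, Sgk1) to 5 (Tsc22d3) were larger than the pooled SD of the gene. That SD is the spread of single arrays and not the error of a difference between group means. Whether neighbours differ was not tested.

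By strain, sleep-deprived brains had 10 genes higher in C57BL/6J, against 3.27% of all probe sets higher and 3.18% lower, 8 in AKR/J, against 3.40% and 2.45%, and 8 in DBA/2J, against 3.27% and 3.63%. Cdkn1a was higher by 0.69 in C57BL/6J, 0.53 in DBA/2J and 0.51 in AKR/J. Tsc22d3 was higher by 0.51 in C57BL/6J, 0.39 in DBA/2J and 0.31 in AKR/J, Zbtb16 by 0.41, 0.30 and 0.37, and Gjb6 by 0.40, 0.26 and 0.18 in that order of strains. Sgk1 differed by 0.40 in C57BL/6J, 0.34 in DBA/2J (adjusted p = 0.019) and 0.46 in AKR/J, Errfi1 by 0.24, 0.22 and 0.17, and Ddit4 by 0.18, 0.21 and 0.23 in that order too. Fkbp5 was higher by 0.32 in C57BL/6J and 0.22 in AKR/J, and Pdk4 by 0.27 in C57BL/6J and 0.21 in DBA/2J. The genes that missed the threshold were Klf9 in AKR/J (0.08, adjusted p = 0.0796) and DBA/2J (0.06, 0.172), Pdk4 in AKR/J (0.12, 0.306) and Fkbp5 in DBA/2J (0.15, 0.0594), by limma.

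Several calls within a strain turned on single arrays or on the settings of the fit. Klf9 in C57BL/6J (adjusted p = 0.0167) was lost without C57BL/6J sleep-deprived ZT18 replicate 3 (0.0535), without the 6 arrays that stood apart (0.148), under quantile normalization (0.0509) and with only the C57BL/6J groups fitted (0.0956). Sgk1 in DBA/2J was lost without DBA/2J sleep-deprived ZT18 replicate 3 (adjusted p = 0.0602) or DBA/2J control ZT0 replicate 1 (0.054) or 2 (0.0504). Pdk4 in DBA/2J (0.21, adjusted p = 0.0262) was lost without replicate 3 of the DBA/2J sleep-deprived ZT0 (0.0534), ZT12 (0.0555) or ZT18 (0.0587) arrays or replicate 1 of the DBA/2J control ZT0 (0.0616) or ZT12 (0.0699) arrays. In AKR/J, Klf9 passed without AKR/J control ZT18 replicate 1 (0.0484), with the brightness filter (0.0323), with a trended and robust variance prior (0.0364), with array weights (0.0435) and with the spike-in split as a block (0.0423). Fkbp5 in DBA/2J passed with only the DBA/2J groups fitted (0.00615), with array weights (0.0272), with the brightness filter (0.033), with the spike-in block (0.038) and with the trended and robust prior (0.0442). It also passed in 6 of the fits that left out 1 array, with the lowest adjusted p, 0.0192, without C57BL/6J sleep-deprived ZT18 replicate 3. The other 5 left out AKR/J sleep-deprived ZT0 replicate 2, C57BL/6J sleep-deprived ZT18 replicate 1, C57BL/6J control ZT18 replicate 1 or 2, or DBA/2J control ZT0 replicate 3.

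The test of the difference between strains called 0 of 10 genes and 0.0222% of all probe sets by limma, while 3366 probe sets had an unadjusted p under 0.05. The widest spans of the change over strains were 0.23 for Gjb6 (adjusted p = 0.228), 0.20 for Tsc22d3 (0.579) and 0.19 for Cdkn1a (0.711). Gjb6 passed the test of the difference when arrays were weighted by their quality (adjusted p = 0.0439) or when the spike-in split was fitted as a block (0.0476).

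The 12 differences of strain and time taken singly are drawn in the map of differences. All 12 were above 0 for Tsc22d3, Sgk1, Cdkn1a, Zbtb16 and Gjb6, 5 of 10 genes against 1.46% of all probe sets. Fkbp5, Ddit4 and Errfi1 were above 0 in 11, Pdk4 in 9 and Klf9 in 8. The largest difference fell in C57BL/6J at ZT12 for 9 genes, among them Cdkn1a (1.06), Tsc22d3 (0.83), Sgk1 (0.82), Gjb6 (0.69), Fkbp5 (0.62) and Ddit4 (0.55), while Zbtb16 was largest in AKR/J at ZT6 (0.62). Over the 120 pairs of a gene with a strain and time, 79 had every sleep-deprived array above every control array, against 8.18% of such pairs over all probe sets. These were 12 of 30 at ZT0, 27 at ZT6, 30 at ZT12 and 10 at ZT18.

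**Figure D4:**
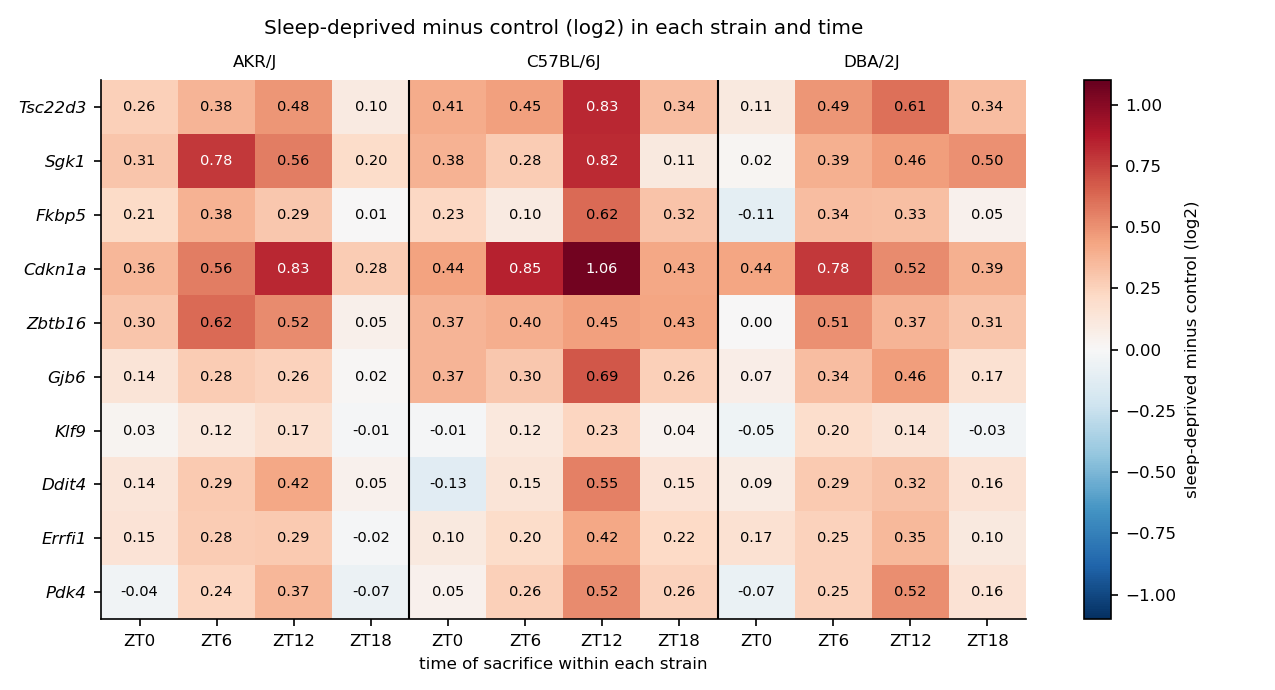
Sleep-deprived minus control difference (log2) of each of the 10 genes in each of the 12 combinations of strain and time, as colour and printed value. The ZT12 columns hold the strongest colours, with 1.06 for Cdkn1a in C57BL/6J, and AKR/J at ZT18 and DBA/2J at ZT0 the palest.

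The median difference of the 10 genes in C57BL/6J was 0.30 at ZT0, 0.27 at ZT6, 0.59 at ZT12 and 0.26 at ZT18. In AKR/J it was 0.18, 0.33, 0.39 and 0.03 at these times, and in DBA/2J 0.04, 0.34, 0.41 and 0.17. ZT12 was the highest in every strain, and the lowest value fell at ZT18 in AKR/J and C57BL/6J and at ZT0 in DBA/2J.

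The control signal of several of these genes differed between strains. Among controls 7 of 10 genes differed between strains (limma F test), against 32.8% of all probe sets. The brightest probe sets of all 10 genes have means above the median of all probe sets. With only the 22518 probe sets above that median fitted, 11378 were called, so the 7 of 10 is not read as particular to these genes. Zbtb16 averaged 7.93 in C57BL/6J, 8.40 in AKR/J and 8.47 in DBA/2J (range 0.54, adjusted p = 1.34e-12), and Pdk4 averaged 5.67 in C57BL/6J, 6.08 in AKR/J and 5.99 in DBA/2J (range 0.41, adjusted p = 5.51e-07). Both were lowest in C57BL/6J. Klf9 was lowest in DBA/2J, at 11.79, against 11.95 in AKR/J and 11.96 in C57BL/6J (adjusted p = 1.65e-07), and Fkbp5 was highest there, at 8.23, against 8.01 in AKR/J and 8.05 in C57BL/6J (adjusted p = 0.00106). Gjb6, Ddit4 and Errfi1 differed by 0.16, 0.15 and 0.11 (adjusted p = 0.00331, 0.0156 and 0.00494). Tsc22d3 (0.10, adjusted p = 0.102), Sgk1 (0.21, 0.22) and Cdkn1a (0.08, 0.551) did not pass.

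**Figure D5:**
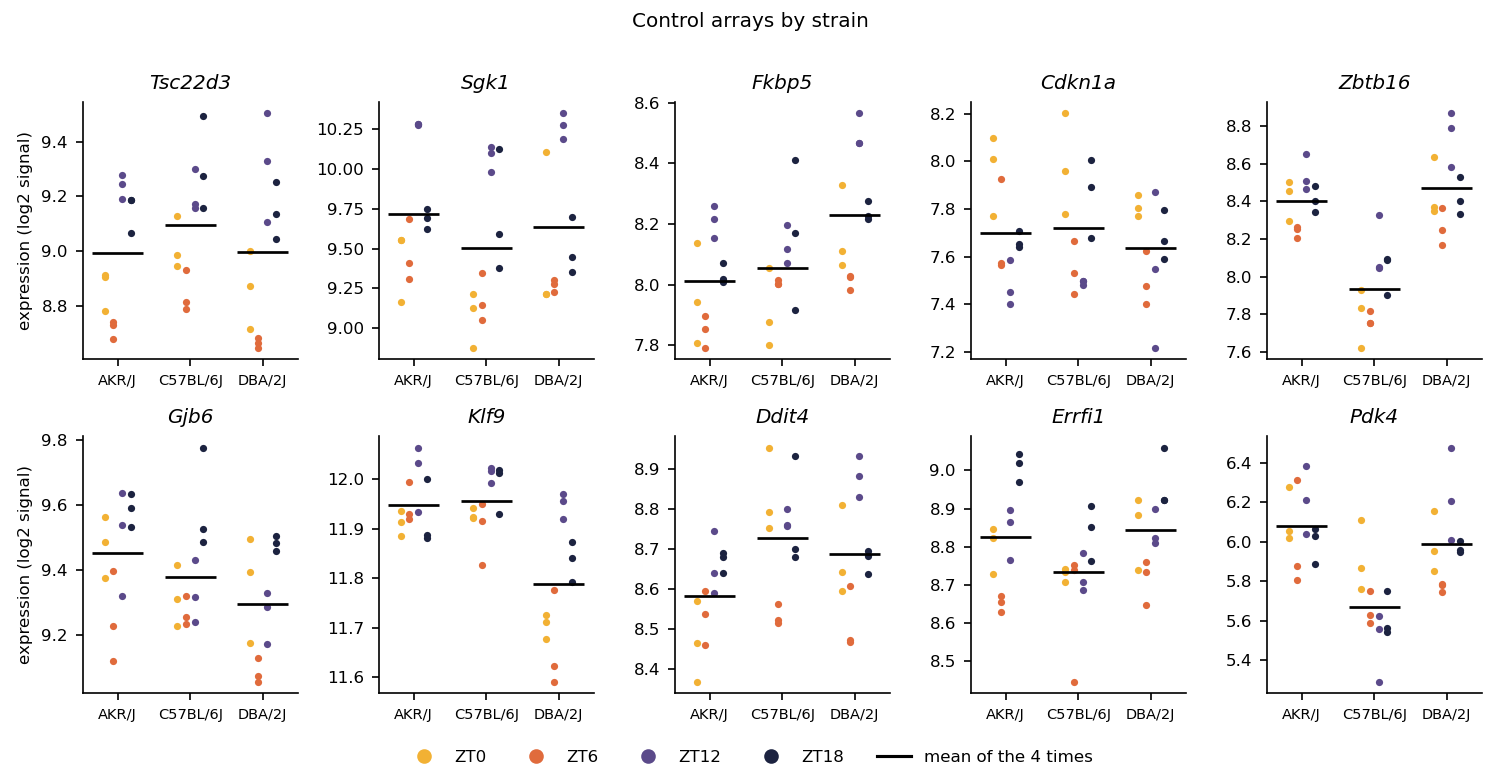
Log2 signal of each of the 10 genes in the control arrays by strain, with colour for time of sacrifice and a line at the mean of the 4 times. C57BL/6J lies lowest for Zbtb16 (7.93) and Pdk4 (5.67), and DBA/2J lowest for Klf9 (11.79).

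The strain differences depended on the probe set. Zbtb16 1419874_x_at spanned only 0.10 between strains (adjusted p = 0.222) and 1427638_at 0.22 (0.00955), against 0.54 at the brightest probe set. At 1427638_at C57BL/6J (5.82) and AKR/J (5.84) were alike and DBA/2J was higher (6.04). Klf9 1456341_a_at spanned 0.75 (adjusted p = 2.02e-20) and 1436763_a_at 0.70, against 0.17 at the brightest, and Cdkn1a 1421679_a_at 0.29 (0.00129), against 0.08. The order of the strain means also changed, in part through differences within error. Cdkn1a 1421679_a_at was highest in DBA/2J (6.48), where the brightest Cdkn1a probe set was lowest (7.64). At the brightest, DBA/2J differed by only -0.06 ± 0.06 (SE) from AKR/J and -0.08 ± 0.06 from C57BL/6J. Klf9 1422264_s_at was highest in DBA/2J (7.66), against 7.63 in AKR/J and 7.53 in C57BL/6J. There DBA/2J differed by 0.03 ± 0.07 (SE) from AKR/J and 0.13 ± 0.07 from C57BL/6J. That probe set passed the strain test only under other settings, such as without the 6 arrays that stood apart (adjusted p = 0.0363, limma F test). The Ddit4 call was lost without the 6 arrays that stood apart (adjusted p = 0.0771), and Tsc22d3 passed without C57BL/6J control ZT18 replicate 3 (0.0461) or DBA/2J control ZT12 replicate 3 (0.0488), and with array weights (0.0459).

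With each strain's mean removed, the 10 genes followed like patterns over the 24 group means. Pearson's r over the 45 pairs of genes had a median of 0.774, and 40 pairs were over 0.5. The highest was 0.952, between Gjb6 and Errfi1, and the lowest 0.287, between Sgk1 and Cdkn1a. These values are descriptions, since all genes share the same arrays and the same sleep-deprived and control groups.

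Likeness to other genes was searched among probe sets with 1 symbol and a mean signal above the median of all probe sets. Among these, the most like Sgk1 were Nfkbia (r = 0.977), Slc2a1 (0.964) and Plekhf1 (0.960). The first encodes the NF-kappaB inhibitor I-kappaB-alpha, and Slc2a1 the glucose transporter of the blood-brain barrier. Nfkbia was also the most like Klf9 (0.946), and Slc2a1 was the most like Fkbp5 (0.951). The most like Tsc22d3 were Gm19439 (0.971) and Smim3 (0.958), and the most like Zbtb16 were Mertk (0.938), a receptor kinase of phagocytic cells and astrocytes, and Gm19439 (0.918). Gjb6 was closest to Mfsd2a (0.970), a lipid transporter of brain endothelium, and Errfi1 to Bcl6 (0.937), a transcriptional repressor. Ddit4 was closest to Plekhf1 (0.927) and Pdk4 to Tob2 (0.833). Cdkn1a stood apart from these names, with Vip (0.912), Tuba8 (0.907) and Dnajb5 (0.904) as the closest. Each r runs over the 24 group means.

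A wider list of genes known to be induced by glucocorticoids moved the same way on average. This list and those below were chosen with earlier results of these data known, so the counts are not an independent check. Several genes of this list, among them Nfkbia, Slc2a1, Mfsd2a and Bcl6, were also among those most like a member over the group means. Of 35 measured genes of 38 listed, 26 were higher and 2 lower in sleep-deprived brains over all strains and times. Of all probe sets, 8.31% were called higher and 9.00% lower. The median of the list was 0.15, against -0.00 over all probe sets. Those with the smallest p-values were Dusp1 (0.40, adjusted p = 2.43e-16), a phosphatase that inactivates MAP kinases, Mfsd2a (0.31, 1.48e-13), Bcl6 (0.26, 2.38e-14) and Tiparp (0.22, 1.11e-12), by limma. The 2 lower genes, named after their values were seen, were Galnt15 (-0.15, adjusted p = 0.00254) and Cdkn1c (-0.13, 6.44e-05). By time, 3 were higher at ZT0 and 19 at ZT6, against 1.26% and 5.13% of all probe sets. At ZT12 22 were higher and at ZT18 0, against 4.71% and 0.0600%. With so small a share at ZT18, the 0 is not read as a difference between times. At ZT6 1 gene of the list was lower and at ZT12 1, against 5.29% and 5.04% of all probe sets. In controls at ZT12 relative to ZT0, 11 of the 35 were higher and 2 lower, against 3.33% and 2.53%. Dusp1 is also an immediate early gene of neuronal activity, and in controls it ran opposite to Sgk1, with -0.49 at ZT12 relative to ZT0, while Arrdc2 was at 0.53, Slc2a1 at 0.39 and Nfkbia at 0.35.

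Of 16 measured genes for the corticosteroid receptors, their chaperones and hormone metabolism, 5 were higher and 2 lower. Of all probe sets, 8.31% were called higher and 9.00% lower. The median of this list was 0.01, against -0.00 over all probe sets. Higher were the chaperones Dnajb1 (0.38), Stip1 (0.29), Fkbp4 (0.23), Hspa8 (0.19) and Hsp90aa1 (0.13), genes that also belong to the heat shock response. Lower were Nr3c2 (-0.19, adjusted p = 1.92e-10), the mineralocorticoid receptor, and Abcb1a (-0.08, 0.0091), a drug and steroid export pump of brain vessels. The glucocorticoid receptor gene Nr3c1 was at -0.05 (adjusted p = 0.209) and Hsd11b1, which regenerates active hormone, at -0.05 (0.0886, limma). Hsp90aa1, Nr3c2, Abcb1a, Nr3c1 and Hsd11b1 fell outside the naming rule and were named after their values were seen. Of 10 genes of the hypothalamic-pituitary-adrenal axis, 3 were higher and 0 lower, against the same shares of all probe sets, with a median of 0.02. The largest of the 3 was Crh (0.53, adjusted p = 2.09e-19, limma), the hypothalamic releasing hormone that is also made in cortex. Crhbp was at 0.12 and Crhr1 at 0.06.

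Among markers of brain cell types some were called higher and some lower, beside 8.31% of all probe sets called higher and 9.00% lower. The lists are short, so counts of 1 or 2 genes are not read as a result about a cell type. The mean of 10 astrocyte markers ran from 9.77 to 10.03 (median 9.88) in sleep-deprived arrays and from 9.81 to 10.05 (median 9.91) in controls, with 0 of 10 higher and 1 lower, Sox9 at -0.11, beside the higher Gjb6. Endothelial markers ran from 6.92 to 7.20 (median 7.07) in sleep-deprived arrays and from 6.91 to 7.22 (median 7.09) in controls, with 1 of 9 higher and 2 lower, among them Slco1a4 at -0.25. Oligodendrocyte markers ran from 10.19 to 10.57 (median 10.36) in sleep-deprived arrays and from 10.28 to 10.74 (median 10.44) in controls, with 2 of 9 higher and 4 lower, among them Opalin at -0.59, a change as large as that of Cdkn1a in the other direction. Of the neuron markers 2 of 12 were higher and 1 lower, of the microglia markers 2 of 9 and 1, of the choroid plexus markers 1 of 7 and 0. Pituitary hormone genes ran from 4.71 to 8.90 in sleep-deprived arrays and from 4.76 to 9.08 in controls, with 0 of 6 called, as for 6 blood cell markers. By time, the median difference of the pituitary genes was -0.84 at ZT0, -0.84 at ZT6, 0.42 at ZT12 and 0.10 at ZT18, each with 0 of 6 called, and in controls it was -1.09 at ZT12 relative to ZT0. Endothelial markers in that control comparison had a median of -0.16, with 1 of 9 higher and 3 lower, against 3.33% and 2.53% of all probe sets. At ZT6 after sleep deprivation 1 of 9 endothelial markers was higher and 3 lower, against 5.13% and 5.29%. Oligodendrocyte markers were lower for 4 of 9 at ZT12 and 3 of 9 at ZT6, against 5.04% and 5.29% of all probe sets. The part of cell makeup in the members' changes was not tested.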

How the data were processed

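Each array measured pooled whole-brain RNA. The deposited values are log2 signals made with RMA by the authors, per the submitters' processing notes, which give no version. The table lists 45101 probe sets, of which the 64 array controls were dropped. Under the platform's gene names, 34945 of the rest carry 1 symbol, 932 several (0 with a member) and 9160 none. A linear model of the 24 group means was fitted to all 45037 probe sets with limma 3.58.1 in R 4.3.3 (47 residual degrees of freedom), with Benjamini-Hochberg adjustment over all of them and a threshold of 0.05. Averages weight strains and times equally. A gene's brightest probe set over all arrays stands for it. For each list, up to 4 called genes with the smallest p-values were eligible to be named. For each member these were the 3 most similar genes with a mean signal above the median of all probe sets. The members and lists were chosen with earlier results of these data known. Alternatives covered normalization, a brightness filter, variance options, array weights, replicate blocks, the groups fitted and each array left out. The fit was tested on simulated data. The number of arrays limits the precision. Among 35 same-numbered pairs of sleep-deprived and control arrays, 6 had deviations correlated above 0.1, so replicate numbers were not taken as pairs.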

Additional observations from a re-analysis of the deposited data

Results flagged for a closer look

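The effect of sleep deprivation differed between times of sacrifice for 9 of the 25 probe sets by limma's F test of the interaction, against 1.40% of all probe sets. The adjusted p was 0.00133 for Tsc22d3 1420772_a_at and 0.0106 for Tsc22d3 1425281_a_at, so both bright probe sets of that gene passed. It was 0.00136 for Ddit4, 0.00357 for Errfi1, 0.00445 for Klf9 1428288_at, 0.0047 for Gjb6, 0.0109 for Cdkn1a 1424638_at and 0.019 for Pdk4. Zbtb16 passed at 1419874_x_at (0.00381), whose suffix marks probes that can bind other transcripts, and not at its brightest probe set (0.183).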

How the results depend on the processing

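All 10 genes were higher over strains and times under every alternative run and with any 1 of the 71 arrays left out, and none was called lower in any strain or at any time in the leave-one-out fits. Counts of genes that moved by more than 1.5 times were these. Array weights, and the spike-in split as a block, which was chosen after seeing the data, each called 1 gene, Gjb6, for the difference between strains, against 0. The mean of a gene's probe sets called 1 gene at ZT18, against 2. Fitting only the compared groups called 2 at ZT0, against 5, and 0 at ZT18. Without the 6 arrays that stood apart, also chosen after seeing the data, 3 were called at ZT0. Smaller movements came from single genes near the threshold. They added 1 gene in AKR/J (Klf9) and DBA/2J (Fkbp5) under several settings, 1 at ZT18 (Zbtb16) and 1 for strain in controls (Tsc22d3) under array weights, and 1 for the time interaction (Fkbp5) under the brightness filter and the spike-in block. They removed 1 in C57BL/6J (Klf9) under 3 settings and 1 at ZT6 (Pdk4) under 2. Taking the mean of a gene's probe sets gave 4 genes at ZT0, 4 for controls at ZT12 over ZT0, 6 for the time interaction and 8 for time of day in controls. Taking the probe set with the smallest p gave 9 in AKR/J, 8 for the time interaction and 9 for strain in controls.

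With 1 array left out, the genes called higher numbered 10 to 10 over all, 8 to 9 in AKR/J, 9 to 10 in C57BL/6J, 6 to 9 in DBA/2J, 3 to 5 at ZT0, 9 to 10 at ZT6, 10 to 10 at ZT12 and 0 to 2 at ZT18. The time interaction called 7 to 8, time of day 9 to 10 in sleep-deprived mice and 9 to 10 in controls, and strain in controls 7 to 8.

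The replicate block (numbers shared by label only, median correlation of deviations 0.021) left 10 genes higher over all and changed the ZT0 count to 4, with Zbtb16 at an adjusted p of 0.0545 (limma).

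Counts over all probe sets depended more on the settings. Array weights gave 4998 in C57BL/6J against 2907, 1401 at ZT0 against 770, 7558 at ZT6 against 4693, 88 at ZT18 against 35, 60 for the strain interaction against 10, 1834 for the time interaction against 629 and 2533 for time in sleep-deprived mice against 639. The brightness filter gave 1206 at ZT0 and 57 at ZT18, the compared groups alone 185 and 10, the spike-in block 67 at ZT18, leaving out the 6 arrays 1889 in C57BL/6J, and quantile normalization 16 for the strain interaction. With 1 array left out the counts ran from 475 to 1292 at ZT0, 9 to 48 at ZT18 and 6 to 25 for the strain interaction. The cause of these movements was not tested.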
